A study of Mus musculus with 2 samples.

Results

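Mature dendritic cells expressing Ccr7 and Ccl22 were studied in droplet-based transcriptomes of single cells (10x, 3′ ends) from the mouse mammary gland and from EO771 mammary tumors. A cell was a member when it held at least 1 Ccr7 UMI (unique molecular identifier, 1 captured transcript), at least 4 UMIs of Ccl22, Il12b and Tbc1d4 together, no Cd79a UMI and at most 2 UMIs over Cd3e, Cd3d and Cd3g. This selected 66 of 2806 cells: 18 of 1806 in the library of the normal gland (NEC) and 48 of 1000 in the tumor library (TEC). The members were chosen by measured counts, so every value of the genes in that rule is a description, and so is every comparison of members with other cells of the same library.

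Per the labels, both libraries came from female C57BL6/J mice, 8 weeks old, carrying Cdh5Cre-ERT2:ZSGreenl/s/l, and tamoxifen had been given to switch on the ZSGreen reporter through the Cre recombinase driven by the endothelial Cdh5 promoter. The mice received 1000000 syngeneic EO771 mammary tumor cells in the fat pad and no other treatment, tumors grew for about 3 weeks, and live ZSGreen-positive cells were sorted from tumors (TEC, tumor endothelial cells in the labels) and from the counterpart normal glands (NEC, normal endothelial cells in the labels). How many mice were pooled, and whether the normal glands came from tumor-bearing mice, is not given in the sources used here. Whether the members, or the other cells in the table used here, carried ZSGreen was not tested. Each group is 1 library, so differences between libraries have no replicate check and no test was possible; every interval below is a 95% interval for counting error only.

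Mature dendritic cells are antigen-presenting cells that have taken up antigen in a tissue and switched to a program for leaving it and meeting T cells. They express the chemokine receptor Ccr7, which guides them to lymph nodes, together with chemokines that attract T cells, ligands that stimulate or restrain T cells, and genes of NF-kB signaling and survival. In tumors, cells with this program have been described that carry both stimulatory and inhibitory ligands.

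The libraries differed in depth. The table held 5228289 UMIs in NEC and 16444540 UMIs in TEC, and the shallowest cell had 1157 UMIs in NEC and 6376 in TEC. A depth gap of this kind, or a cut on UMIs behind it, can set shares of cells, and its part in the shares below was not tested. Members of the NEC library had a median of 4665.5 UMIs (range 1273 to 18892) and those of TEC 8164 (6377 to 36045). They made up 0.997% of NEC cells (exact binomial interval 0.592 to 1.57) and 4.80% of TEC cells (3.56 to 6.31). These are shares of the cells in the deposited table and not of the sorted endothelium: Ptprc, the leukocyte gene Cd45, was found in 804 of 1788 other NEC and 653 of 952 other TEC cells. Among the members, Ptprc was found in 5 of 18 in NEC and 32 of 48 in TEC. When each cell was first thinned to 2000 UMIs, 13 NEC and 26 TEC members were left, and 4 of the 18 NEC members had too few UMIs to be thinned. The libraries shared 2 cell barcodes, and 0 members had such a barcode.

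Ccr7 lies on chromosome 11 at 99144199 to 99155077 (GRCm38, the mm10 build), Ccl22 on chromosome 8 at 94745684 to 94751388, Il12b on chromosome 11 at 44400063 to 44414677 and Tbc1d4 on chromosome 14 at 101442360 to 101609281; all are annotated as protein-coding. Ccr7 was present at a median of 6 UMIs per NEC member (range 1 to 51) and 20 per TEC member (1 to 65), which is 2574 and 2304 CPM (UMIs per 1000000 summed UMIs). Ccl22, a chemokine that attracts Ccr4-bearing T cells, was found in 17 of 18 NEC members (median 3 UMIs, highest 52) and 37 of 48 TEC members (median 5, highest 61). Tbc1d4, a Rab GTPase-activating protein, was found in 16 and 47 members, at most 13 and 18 UMIs per cell. These ranges overlapped between the libraries for all 3 genes.

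Il12b, the p40 subunit shared by interleukins 12 and 23, was far more uneven. It was found in 5 NEC members, with 1, 2, 4, 7 and 8 UMIs, and in 13 TEC members. A single TEC member held 106 Il12b UMIs, 79.1% of all Il12b UMIs of the TEC members, so the TEC level of 295 CPM is mostly 1 cell. All 3 core genes were present together in 4 NEC and 10 TEC members.

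The Ccr7 condition was met far beyond the members: 868 NEC and 215 TEC cells held a Ccr7 UMI. In NEC this included 59.0% of B cells (cells with Cd79a and no Cd3 UMI; 525 CPM) and 69.0% of cells with over 2 Cd3 UMIs (509 CPM), and in these the other conditions removed it. The Cd3 condition alone left out 1 NEC cell and 19 TEC cells. Of those 19 TEC cells, 15 held Fscn1, 12 held Ccl22, 15 held the T-cell kinase gene Lck and 11 held Cd8a. Cells just outside the core cutoff, with 2 or 3 core UMIs, numbered 5 in NEC and 8 in TEC, with 636 and 192 CPM of Fscn1. Cells just inside it, with 4 or 5, numbered 5 and 4, with 2003 and 44.1 CPM; in TEC the cutoff therefore did not fall on a step in Fscn1, whereas TEC members with 8 or more core UMIs had 1878 CPM.

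**Figure D1:**
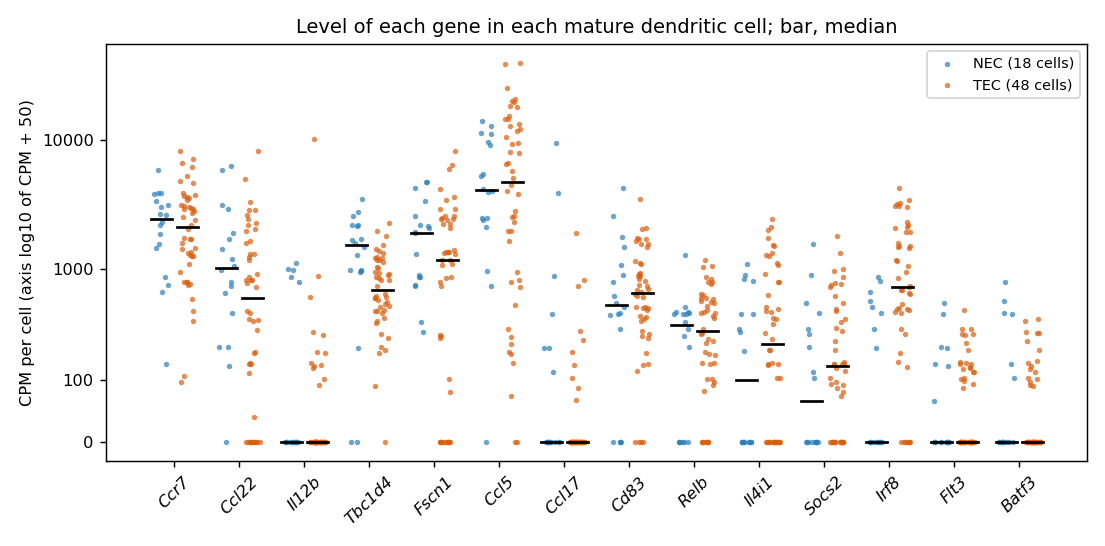
Level of 14 genes in each mature dendritic cell, in CPM of the cell on an axis of log10 of CPM + 50; points are cells (18 NEC, 48 TEC) and bars are medians. The Ccr7 and Ccl5 medians lie close together in both libraries, Il12b is at 0 in most cells with 1 TEC cell at 10196 CPM, and 12 TEC members sit at 0 for Fscn1.

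The dendritic label was checked against lineage genes outside the rule. Flt3, the growth factor receptor of dendritic cells, was found in 7 of 18 NEC and 22 of 48 TEC members (91.1 and 76.9 CPM), and in 0 of 124 TEC macrophages (cells with at least 4 C1q UMIs; median 7655 UMIs per cell). Batf3, a transcription factor of type 1 conventional dendritic cells, was found in 6 and 17 members (137 and 63.8 CPM) against 11 of 124 TEC macrophages (10.4 CPM). Zbtb46, a transcription factor of the conventional dendritic lineage, was found in 3 and 10 members, and in 0 of 124 macrophages. Of the dendritic cell core genes outside the rule, 3 of 4 compared with the other NEC cells were higher and 0 lower. In TEC 6 of 8 were higher and 0 lower. Against TEC macrophages alone 1 of 3 compared was higher and 0 lower, and their median log2 ratio was -0.39. All 6 fibroblast markers were at 0 in the members of both libraries. All 6 measured B and plasma cell markers outside the rule were at 0 in NEC members; Cd79a is left out because the rule sets it to 0. Of 9 pan-endothelial markers 8 were at 0 in NEC members and 6 in TEC members, Cdh5 among both. Dendritic lineage genes were thus present, and most markers of the endothelium that the sort was meant for were at 0. Compared with the other TEC cells, however, 0 of 7 pan-endothelial markers were higher and 1 lower, and 3 had a ratio above 1. Defining markers of the resting conventional subsets were sparse: Xcr1, Clec9a and Cd209a were at 0 in NEC members, and 2 TEC members held Xcr1, 3 Clec9a and 1 Cd209a. The list of type 1 markers summed to 478 CPM in NEC members against 381 CPM in the other NEC cells, and to 1435 against 329 CPM in TEC. Irf8 alone stood at 364 CPM in NEC members, and at 1327 CPM in TEC members with Fscn1 and 802 CPM in those without. Type 1 markers were higher for 1 of 5 compared in NEC and 2 of 6 in TEC, with 1 and 0 lower. Type 2 markers were higher for 3 of 9 in each library, with 1 and 2 lower. Plasmacytoid markers were higher for 0 of 4 in NEC and 3 of 5 in TEC, with 1 and 0 lower. Cd207, the Langerhans cell lectin, was found in 3 NEC members (13 UMIs, 9 of them in 1 cell) and 0 TEC members.

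Markers of other cells differed more. The 12 macrophage genes summed to 137 CPM in NEC members (0 to 883 per cell, with C1qa, C1qb, C1qc, Csf1r and Adgre1 at 0) and to 2000 CPM in TEC members (0 to 16412 per cell, with none at 0); TEC macrophages stood at 14948 CPM. The T and NK genes summed to 11.4 CPM in NEC members and 218 CPM in TEC members (0 to 5132 per cell). That sum includes Cd3e, Cd3d and Cd3g, which the rule caps at 2 UMIs together, so it is partly set by the selection. There were 3 TEC members with over 2 C1q UMIs, 8 with at least 20 Lyz2 UMIs, 5 with a Cd3 UMI and 2 with the plasmacytoid gene Siglech (20 and 6 UMIs); the deepest TEC member, with 36045 UMIs, was without Fscn1. Their part in the tumor values was not tested, and they stayed in the counts below. Without them NEC kept 18 members and TEC 35, and against all other TEC cells 857 genes were higher and 1474 lower, with 12 NF-kB, 24 other maturation, 8 survival and 7 costimulatory genes higher. Between TEC and NEC members 907 genes were then compared in place of 1283, and 190 were higher and 58 lower. Higher were 9 interferon, 5 glycolysis, 5 class II and 3 uptake genes. Lower were 8 stress, 8 other maturation and 2 migration genes.

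Against all other cells of their library, members were higher for most of the other maturation genes compared (22 of 25 in NEC and 24 of 27 in TEC) and of the survival genes (9 of 14 and 8 of 14), and for part of the migration and cytoskeleton genes (10 of 18 and 9 of 18). A gene was compared when it had at least 50 UMIs over both sums, and it was counted as higher or lower when the ratio of CPM was at least 2 and its exact interval excluded 1. Of 6592 genes in NEC 7.9% were higher and 6.36% lower, of 9941 genes in TEC 8.3% and 15.7%, and of 6380 genes compared in both libraries 4.08% were higher and 1.82% lower in both. Scaling by the median ratio in place of the total changed the TEC split from 825 higher and 1561 lower genes to 1251 and 956. The level of Fscn1, the actin-bundling protein fascin (chromosome 5, 142960355 to 142973189), was 1959 CPM in NEC members against 17.1 in the other cells (ratio 114, interval 88.0 to 150) and 1486 against 115 CPM in TEC (12.9, 11.8 to 14.1). In TEC the other Fscn1 was carried largely by the cells marked by Rhox5, of which 97.2% held it at 166 CPM.

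The 20 genes named by a rule on the interval bounds were, in order, Il4i1, Cacnb3, Mreg, Serpinb6b, Rogdi, Zmynd15, Serpinb9, H2-M2, Fscn1, Samsn1, Socs2, Lrrk1, Bcl2a1b, Cst3, Gyg, Ccl5, Bcl2a1a, Tmem176a, Glipr2 and Bcl2a1d. Il4i1, a secreted amino acid oxidase that restrains T cells, was 71.0-fold higher in NEC (43.6 to 116) and 48.6-fold in TEC (39.7 to 59.7), at 456 and 508 CPM. H2-M2, a nonclassical MHC class I gene on chromosome 17, was nearly restricted to NEC members in its library, with 54 UMIs in 10 of 18 members and 4 UMIs in 1 of the other 1788 cells. Zmynd15 had 54 UMIs in NEC members and 8 in all other NEC cells, and was 20.5-fold higher in TEC (15.9 to 26.4).

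Of the other maturation genes, a list of 29, 22 of 25 compared were higher in NEC and 24 of 27 in TEC, with 0 lower in either; the list's median log2 ratio was 3.45 and 2.54, beside -0.18 and -0.34 over all genes compared. The list is made of genes already known for this cell state and was chosen with earlier results of these data known. Samsn1, an adaptor protein, was 14.3-fold (11.5 to 17.8) and 19.9-fold (17.4 to 22.6) higher. Cst3, the protease inhibitor cystatin C that is abundant in dendritic cells, reached 7096 CPM in NEC members and 20941 CPM in TEC members. Stat4, a signal transducer of interleukin 12, had a log2 ratio of 4.32 in TEC. Its NEC ratio, on the plain scale and not in log2, was 1.59 (0.757 to 2.96), an interval that includes 1.

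**Figure D2:**
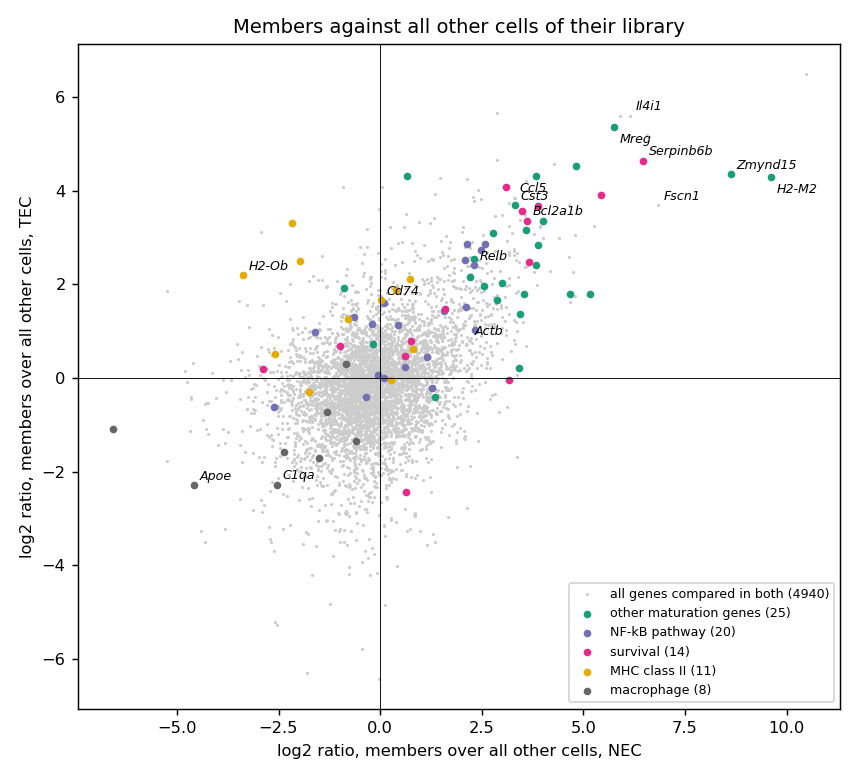
Log2 ratio of CPM in members over all other cells, NEC on the x axis and TEC on the y axis, for the genes with a ratio in both libraries (grey) and 5 lists in color. Maturation and survival genes lie mostly in the upper right, macrophage genes in the lower left, and several MHC class II genes are at or below 0 in NEC but above 0 in TEC.

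Genes of NF-kB signaling, the pathway that dendritic cells switch on when they mature, were higher for 10 of 20 in NEC with 1 lower, and for 11 of 20 in TEC with 0 lower. Relb, the subunit of the noncanonical branch, was 4.97-fold (3.42 to 7.03) and 5.33-fold (4.46 to 6.34) higher. Map3k14, the kinase that starts this branch, was 5.95-fold (3.08 to 10.5) and 7.29-fold (5.52 to 9.51) higher, and Nfkb2, which encodes its partner subunit p100, 4.31-fold (2.55 to 6.87) and 2.87-fold (2.19 to 3.70). The canonical subunit gene Rela had log2 ratios of 0.10 and 0.01.

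The promoters of 3 genes higher in the members of both libraries, each holding the NF-kB consensus in its forward or reverse form, are shown because the pathway's genes stood higher together. They were chosen after their values were seen. Each runs from 250 bases before to 50 after a transcript start listed by RefSeq (GRCm38.p6, in the direction of the gene), and the capitals mark the consensus. RefSeq lists several starts for some genes, and the first window holding a match is shown; for Nfkb2 and Tnfrsf9 this start lies inside the full span of the gene.
Nfkb2, chr19:46304487-46304786, plus strand: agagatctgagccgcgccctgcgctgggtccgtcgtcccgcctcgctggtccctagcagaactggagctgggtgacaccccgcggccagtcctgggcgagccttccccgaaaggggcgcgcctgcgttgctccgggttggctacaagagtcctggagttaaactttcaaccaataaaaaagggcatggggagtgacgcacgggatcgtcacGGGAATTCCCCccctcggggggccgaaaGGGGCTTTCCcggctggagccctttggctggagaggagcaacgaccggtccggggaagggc
Tnfrsf9, chr4:150927749-150928048, plus strand: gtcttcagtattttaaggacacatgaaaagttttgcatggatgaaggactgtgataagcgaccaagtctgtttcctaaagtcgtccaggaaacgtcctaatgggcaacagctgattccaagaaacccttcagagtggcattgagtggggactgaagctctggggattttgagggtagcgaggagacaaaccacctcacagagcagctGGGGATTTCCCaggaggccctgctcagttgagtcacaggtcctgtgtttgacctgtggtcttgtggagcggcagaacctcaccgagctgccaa
Epsti1, chr14:77903989-77904288, plus strand: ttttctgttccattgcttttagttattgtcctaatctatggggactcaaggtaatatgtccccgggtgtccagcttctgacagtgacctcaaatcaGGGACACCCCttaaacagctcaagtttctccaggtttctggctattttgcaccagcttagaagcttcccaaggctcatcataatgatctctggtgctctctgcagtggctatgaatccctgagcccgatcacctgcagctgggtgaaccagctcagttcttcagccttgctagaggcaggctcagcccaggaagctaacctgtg
Counting a gene when the window of any of its listed starts held a match, the consensus was present in 9 of the 17 NF-kB pathway genes with a promoter entry and in 5.14% of 27025 genes in all. It was present in 6 of 24 other maturation genes (Stat5a, Epsti1, AW112010, Basp1, H2-M2 and Tmcc3) and in 2 of the 17 named identity genes with an entry, H2-M2 and Tmem176a. Of the chemokine genes 3 of 8 held it, of class I presentation 4 of 13 and of class II 2 of 9. For immediate early and stress genes the count was 4 of 21. It was 1 of 14 for survival, 2 of 25 for interferon and 1 of 18 for glycolysis genes. These shares describe the lists and not these cells. Such a match describes these letters and is no evidence of binding.

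Tnfrsf9, the costimulatory receptor 4-1BB, was 6.14-fold higher in NEC members (3.18 to 10.9) and 6.46-fold in TEC members (5.53 to 7.53). Of the costimulatory genes 4 of 7 compared were higher in NEC and 7 of 9 in TEC, with 0 lower. Cd40, which receives help from T cells, was 12.3-fold (7.59 to 19.3) and 5.29-fold (4.38 to 6.35) higher, and Cd83, a maturation marker, 4.66-fold (3.71 to 5.80) and 6.84-fold (6.09 to 7.67). Cd86, a ligand of Cd28, was 6.17-fold higher in TEC (5.35 to 7.10), and its NEC ratio of 1.89 (1.09 to 3.05) fell short of 2.

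Inhibitory genes were higher in the same cells: 6 of 13 compared in NEC and 7 of 12 in TEC, with 1 and 2 lower. Cd274, which encodes the checkpoint ligand PD-L1, was 3.35-fold (1.58 to 6.30) and 3.15-fold (2.44 to 4.01) higher. Cd200, a ligand that restrains myeloid cells, was 7.32-fold (3.97 to 12.6) and 25.4-fold (19.2 to 33.5) higher, and Socs2, a feedback inhibitor of cytokine signaling, 19.5-fold (10.8 to 33.8) and 24.0-fold (18.9 to 30.3). In TEC 22 of 48 members held Pdcd1lg2, which encodes PD-L2. In NEC members Pdcd1lg2 had 0 UMIs, which allows up to 3 UMIs in 87794.

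Among chemokines, Ccl5, which attracts T cells and monocytes, was the most abundant, at 4499 CPM in NEC members (median 18 UMIs per cell, highest 71) and 7259 CPM in TEC members (median 47, highest 401). Cxcl16, the ligand of Cxcr6, was 26.7-fold (20.6 to 34.3) and 4.83-fold (4.33 to 5.38) higher than in the other cells. Ccl17, which shares its receptor with Ccl22, was found in 7 of 18 and 10 of 48 members. Ccl2, which attracts monocytes, was lower in both, with 3 UMIs in NEC members (ratio 0.0470, interval 0.00969 to 0.138) and 9.56-fold lower in TEC. Of the chemokines outside the rule, 3 of 10 were higher and 4 lower in NEC, and 3 of 11 higher and 3 lower in TEC.

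Of the migration and cytoskeleton genes outside the rule, 10 of 18 compared in NEC and 9 of 18 in TEC were higher, with 1 and 2 lower. Marcks, a membrane-bound regulator of actin, was 9.74-fold higher in NEC and 6.52-fold in TEC, and Myo1g, a class I myosin of leukocytes, 7.94-fold (5.41 to 11.3) and 11.2-fold (9.65 to 13.0). Cacnb3, a calcium channel subunit, was 94.8-fold (53.5 to 172) and 36.4-fold (27.8 to 47.7) higher. Survival genes were higher for 9 of 14 and 8 of 14, with 1 lower in each. The antiapoptotic genes Bcl2a1a, Bcl2a1b and Bcl2a1d are near-identical copies whose reads the counting may split; their NEC ratios were 14.8, 12.3 and 11.2 and their TEC ratios 12.8, 10.3 and 11.9. Serpinb9, an inhibitor of granzyme B, was 43.1-fold (30.0 to 61.7) and 15.0-fold (12.8 to 17.7) higher.

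MHC class II genes, which present antigen to CD4 T cells, did not stand out in NEC, where 0 of 11 compared were higher and 5 lower, and stood higher in TEC for 7 of 12. Of the 1788 other NEC cells 617 were B cells, which carry class II themselves: H2-Ab1 stood at 6059 CPM in them, 2678 CPM in all other cells and 1538 CPM in members. The part of the B cells in the NEC count was not tested. In TEC the other cells include the Rhox5 cells, which hold 53.8% of the library's UMIs, and their part in the TEC count was not tested. Against TEC macrophages alone, 2 of 9 class II genes compared were higher in members and 3 lower. The accessory gene H2-Ob had 1 UMI in NEC members (ratio 0.0961, interval 0.00243 to 0.538) and was 4.58-fold higher in TEC members (2.29 to 8.40). MHC class I presentation genes were higher for 9 of 15 in NEC and 6 of 15 in TEC, among them Psme2, a proteasome activator, at 7.96-fold (6.27 to 10.0) and 4.09-fold (3.77 to 4.43).

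Genes of antigen uptake and pathogen sensing were higher for 0 of 13 and lower for 5 in NEC, and higher for 2 of 18 and lower for 8 in TEC. The lysosomal protease gene Ctsl had 1 UMI in NEC members and was 10.9-fold lower in TEC members. Ly75, which encodes the uptake receptor DEC-205, went the other way in TEC at 6.25-fold higher (4.28 to 8.90). Glycolysis and hypoxia genes were lower for 4 of 16 in NEC with 1 higher, and for 11 of 20 in TEC with 0 higher; Ldha, which makes lactate, was 4.87-fold and 3.27-fold lower. In TEC the Rhox5 cells, which hold 53.8% of all UMIs of the library, weigh on the other cells in that comparison.

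The named genes lower in the members of both libraries were Ccl2, Krt8, Timp2, Hmox1, Ccl7, Cxcl1, Apoe, Klf2, Ets1, Igfbp4, Lmna and C1qa. The ratio of Cxcl1 changed sign under 2 settings, with a log2 ratio of 1.03 in NEC against other cells with Ptprc and of 0.99 in TEC with a core cutoff of 2 UMIs, and met the size rule in neither. Apoe, a lipid carrier of macrophages, was 23.8-fold lower in NEC and 4.89-fold lower in TEC, and Klf2, a transcription factor of quiescent lymphocytes and endothelium, 5.25-fold and 5.57-fold. Krt8, an epithelial keratin, had 0 UMIs in the members of both libraries, at least 6.14-fold and at least 13.0-fold lower with the group at 0 set to 3 UMIs.

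A closer comparison was made in TEC with conventional dendritic cells (31 cells with at least 1 UMI of Flt3 or Zbtb46, at least 20 UMIs of class II genes, at most 2 of C1q and no Ccr7) and with macrophages (124 cells). Of 1846 genes compared with conventional dendritic cells, 13.1% were higher in members and 7.58% lower; of 3437 compared with macrophages, 10.2% and 19.2%. Ccr7 was used to choose the members and the conventional dendritic cells, and class II, Flt3 and Zbtb46 to choose the latter. Other maturation genes were higher for 19 of 23 against conventional dendritic cells and 17 of 22 against macrophages, and NF-kB genes for 8 of 12 and 11 of 17, with 0 lower in each. Fscn1 was 13.0-fold higher (9.41 to 18.4) and 190-fold higher (99.6 to 418), Il4i1 7.87-fold (5.08 to 12.8), and Cd274 2.08-fold (1.31 to 3.39) against conventional dendritic cells.

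Class II, by which the conventional dendritic cells were chosen, was lower than in them: H2-Ab1 stood at 9579 CPM there against 3568 in members, 2.68-fold lower, and 3 of 10 class II genes were lower and 1 higher. Cd209a, a lectin of type 2 conventional dendritic cells, had 1 UMI in members and 95 UMIs in the 31 conventional dendritic cells. Naaa, a type 1 conventional dendritic marker, was 10.7-fold lower. Cst3 was shared, with 20941 CPM in members and 17361 CPM in conventional dendritic cells. The NEC library held 11 conventional dendritic cells; of 369 genes compared there 20.9% were higher in members and 11.4% lower, and 12 of 13 other maturation genes were higher and 6 of 7 class II genes lower.

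**Figure D3:**
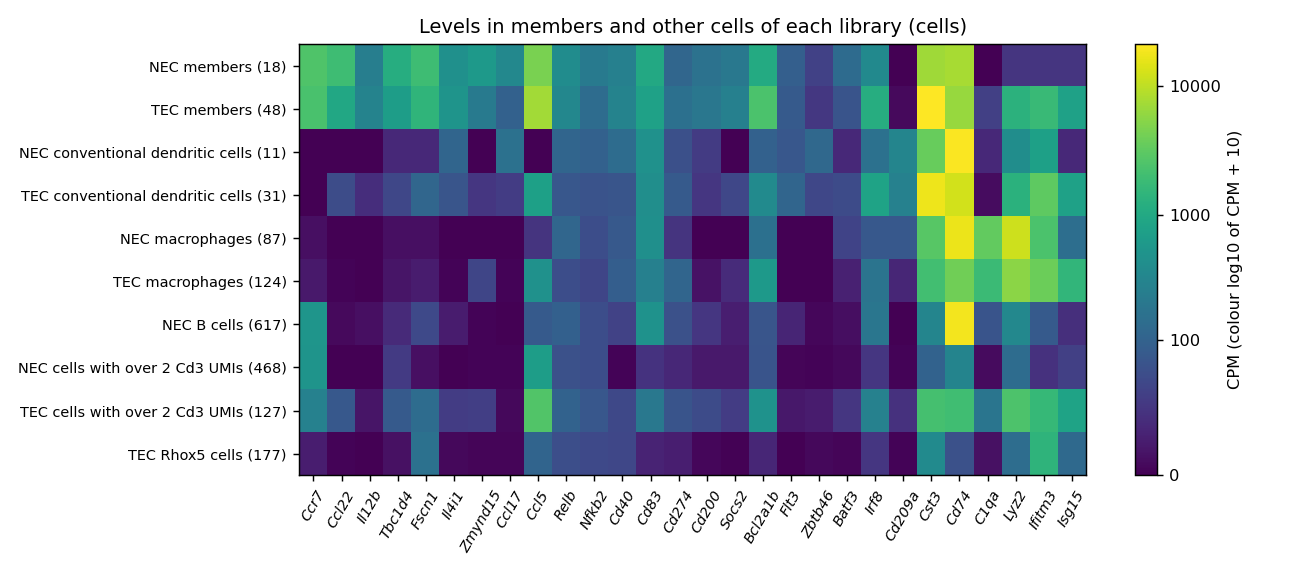
Summed level of 28 genes (color, log10 of CPM + 10) in members and in other cells of each library, with the number of cells in brackets. Fscn1, Il4i1 and Ccl5 are brightest in the members of each library, Ccr7 is also present in NEC B cells and in cells with over 2 Cd3 UMIs, and Cst3 is shared with conventional dendritic cells.

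The TEC members were not uniform. Fscn1 was present in 36 of the 48 and absent in 12, whereas all 18 NEC members held it; in cells thinned to 2000 UMIs (14 NEC and 48 TEC members) it was present in 91.5% and 65.6%. The split by Fscn1 was made after the values were seen. The classical class II genes H2-Aa, H2-Ab1, H2-Eb1 and Cd74 together made up a median of 4.56% of UMIs in the 12 cells without Fscn1 (range 0.802 to 6.78), 0.762% in the 36 cells with it (0.0490 to 7.46) and 0.658% in the 18 NEC members (0.157 to 6.17). The ranges overlapped, and among cells with Fscn1 the highest share belonged to a TEC cell with 2 Fscn1 UMIs.

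The TEC cells without Fscn1 also stood lower for several other genes of the maturation program, but not for all. Anxa3, an annexin, was found in 1 of 12 cells without Fscn1 and 27 of 36 with it, Cacnb3 in 3 and 31, Socs2 in 3 and 30, Net1, an exchange factor for RhoA, in 1 and 25, and Mreg, melanoregulin, in 2 and 20. Cd83 was found in 11 and 33 (636 and 841 CPM) and Il4i1 in 8 and 24 (347 and 578 CPM), which are like shares of the 12 and the 36 cells. Ccl5 stood at 1900 CPM without Fscn1 and 9603 CPM with it. Among the cells without Fscn1, a single cell held 123 Ccl5 UMIs, another 105, and each of the rest at most 7. Plet1 was found in 5 cells without Fscn1 and 0 with it, and Cfp, complement properdin, in 8 and 6. The 2 sets had similar depth, with medians of 8442 and 8102 UMIs. Across the 48 TEC members the Fscn1 level and the class II share had a Spearman rho of -0.56 and a Pearson r of -0.46, and across the 18 NEC members -0.10 and -0.36; the cells of a library share its preparation, and these are descriptions without a test.

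**Figure D4:**
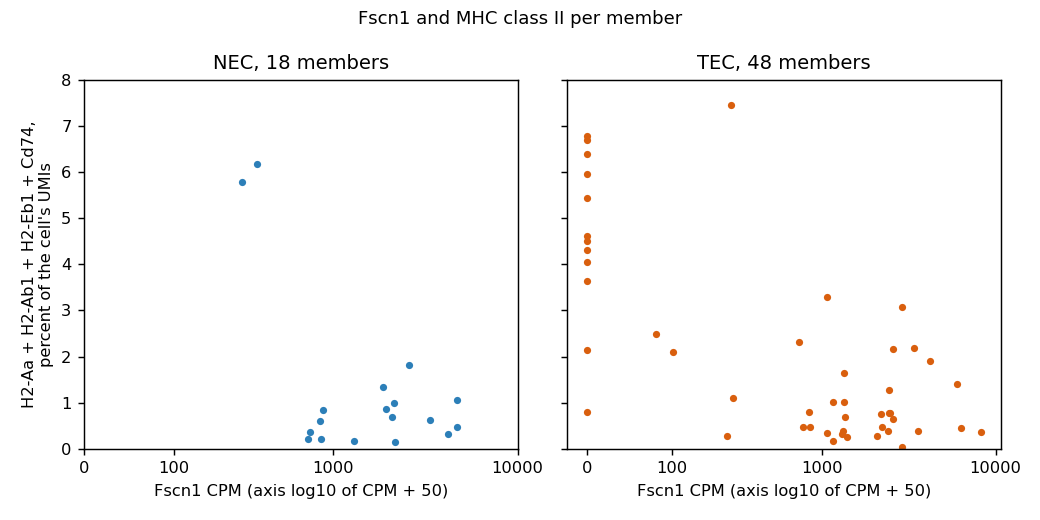
Fscn1 level (x axis, log10 of CPM + 50) and the share of H2-Aa, H2-Ab1, H2-Eb1 and Cd74 in the UMIs of each member (y axis, percent), NEC on the left and TEC on the right. The 12 TEC cells at 0 CPM of Fscn1 spread from 0.802% to 6.78%, and most cells above 500 CPM lie under 4%; 2 NEC cells near 300 CPM lie near 6%.

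Between libraries, TEC members stood above NEC members for interferon-response genes. Of 1283 genes compared 21.1% were higher in TEC and 6.08% lower, and the median log2 ratio over all of them was 0.35, which is a shift the list values should be read against. Scaling by the median ratio changed the split from 271 higher and 78 lower genes to 175 and 147. For genes of the core program, of which the membership rule used Ccr7 and Ccl22, the TEC over NEC ratios were 0.895 for Ccr7 (0.774 to 1.04), 0.759 for Fscn1 (0.641 to 0.902), 1.61 for Ccl5 (1.45 to 1.80), 0.509 for Ccl22 (0.425 to 0.610), 1.39 for Cd274 (0.714 to 3.02) and 1.11 for Il4i1 (0.794 to 1.60). Inhibitory genes met the size rule for 0 of 7 compared, in either direction.

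Of the interferon-response genes, which cells switch on after type I or II interferon, 14 of 16 compared were higher in TEC members, none was lower, and their median log2 ratio was 2.32. Summed over the list, NEC members ranged from 0 to 1812 CPM (median 443) and TEC members from 1172 to 50180 CPM (median 6053), so the ranges overlapped only at their ends. Ifitm3, an antiviral membrane protein, was present in 2 of 18 NEC members at 1 UMI each and in 46 of 48 TEC members (median 8 UMIs, highest 66), 22.8 against 1770 CPM, a ratio of 77.7 (21.4 to 643). Thinned to 2000 UMIs, Ifitm3 was present in 6.23% and 78.2% of members. Isg15, a ubiquitin-like modifier, was present in 1 NEC member with 2 UMIs and in 33 TEC members (highest 60), a ratio of 34.0 (9.33 to 282). Irf7, a transcription factor that amplifies the response, had a ratio of 23.8 (6.53 to 198).

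The same direction was present in other cells of these libraries, which share preparation and sequencing with the members. Interferon genes were higher in TEC for 13 of 15 compared in conventional dendritic cells (19.8% of all genes compared there), 28 of 32 in macrophages (32.8%) and 28 of 31 in cells with over 2 Cd3 UMIs (30.2%). Within TEC the members did not lead: Ifitm3 stood at 1770 CPM in members, 3171 in conventional dendritic cells and 3773 in macrophages. Ifitm3 was also found in 93.7% of TEC cells with over 2 Cd3 UMIs (1687 CPM, median 9735 UMIs per cell), and Isg15 in 84.3% of them against 68.8% of members. T cells can express both genes, and the part of free RNA in these shares was not tested. Without the members that held markers of other cells (35 TEC and 18 NEC members left), 9 interferon genes were higher. In that setting 907 genes were compared in all in place of 1283, and 190 were higher. How many interferon genes were among the 907 is not given here.

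The promoters of Isg15 and Ifitm3, both among the 12 genes named as higher in TEC, are shown with matches to the interferon-stimulated response element core, GAAANNGAAA on either strand, in capitals (RefSeq, GRCm38.p6, 250 bases before to 50 after a listed transcript start, in the direction of the gene).
Isg15, chr4:156200769-156201068, minus strand: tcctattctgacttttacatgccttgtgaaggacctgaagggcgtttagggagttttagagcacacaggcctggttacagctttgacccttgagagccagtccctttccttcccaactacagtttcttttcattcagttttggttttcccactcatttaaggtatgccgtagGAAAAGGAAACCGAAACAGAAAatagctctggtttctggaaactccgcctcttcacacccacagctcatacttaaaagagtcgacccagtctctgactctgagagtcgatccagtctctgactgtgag
Ifitm3, chr7:141010695-141010994, minus strand: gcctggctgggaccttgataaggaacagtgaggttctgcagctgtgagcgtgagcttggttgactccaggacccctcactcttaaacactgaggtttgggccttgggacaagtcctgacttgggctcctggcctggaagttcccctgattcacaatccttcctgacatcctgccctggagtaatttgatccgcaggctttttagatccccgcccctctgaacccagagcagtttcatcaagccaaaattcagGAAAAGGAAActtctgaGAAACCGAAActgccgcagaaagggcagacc
Isg15 held 3 overlapping matches upstream of its start, and Ifitm3 held 2 just after it. The core was present in 14 of 25 interferon-list genes with a promoter entry, in 4 of 9 genes named as higher in TEC (Ifitm3, Spp1, Tgfbi and Isg15) and in 3.99% of 27025 genes in all. The interferon list holds genes known to respond through this element, so its share describes the list and not these cells.

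The 12 genes named as higher in TEC members were Ifitm3, Ifi27l2a, Ifitm1, Lyz2, Spp1, Ly6e, Ccl4, Tgfbi, Isg15, Ly6c2, Plac8 and Il1r2. Ly6e had 205 UMIs in TEC members and 0 in NEC members, at least 13.2-fold higher with NEC set to 3 UMIs. Il1r2, a decoy receptor for interleukin 1, had 148 UMIs in TEC members and 0 in NEC members, but 56.2% of TEC members and 58.3% of TEC cells with over 2 Cd3 UMIs held it. Lyz2, lysozyme of myeloid cells, had 2 UMIs in NEC members and 613 in 35 TEC members (highest 154), but it was also found in 86.6% of TEC cells with over 2 Cd3 UMIs, above the 72.9% of members. Spp1 was found in 35.4% of TEC members and 63.8% of those Cd3 cells, and 1 TEC member held 67.8% of its UMIs in members. Ly6e was in 64.6% of TEC members and all of those Cd3 cells. For these genes the share of members was not above that of the Cd3 cells, so no expression by the members is read from it, and the part of free RNA was not tested. Nor is a lack of expression read from it, because the Cd3 cells are no negative reference. Of the 19 TEC cells left out of the members by the Cd3 condition alone, 15 held Fscn1. Ly6e is among the 14 interferon genes counted as higher above. In Ccl4, a single TEC member held 52.0% of the 196 UMIs.

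Glycolysis genes were higher in TEC members for 6 of 8 compared. Ldha was 5.98-fold higher (2.85 to 15.1) and Pkm, pyruvate kinase, 4.38-fold (2.52 to 8.32). Among members with Fscn1 the count was 3, with 1004 genes compared in all in place of 1283. Glycolysis genes were also higher in TEC for 5 of 9 compared in conventional dendritic cells and 11 of 16 in macrophages. In cells with over 2 Cd3 UMIs 13 of 18 were higher. Of all genes compared, 19.8%, 32.8% and 30.2% were higher in these groups, in that order. MHC class II genes were higher for 5 of 9, H2-Ab1 at 2.32-fold (1.95 to 2.79), but for 2 among members with Fscn1. H2-Ab1 stood at 1538 CPM in the NEC members, all with Fscn1, at 1492 CPM in the 36 TEC members with Fscn1 and at 8314 CPM in the 12 without. Uptake and sensing genes were higher for 7 of 7 compared, and for 3 without the members holding markers of other cells. That last setting compared 907 genes in all. Uptake and sensing genes were also higher in TEC for 3 of 6 compared in conventional dendritic cells. In macrophages 6 of 14 were higher and 2 lower, and in cells with over 2 Cd3 UMIs 13 of 13 were higher. Of the costimulatory genes Cd86 and Tnfrsf9 were higher, at 2.63-fold (1.61 to 4.60) and 2.95-fold (1.69 to 5.65), of 4 compared. Il1b, the inflammatory cytokine interleukin 1 beta, was 8.44-fold higher (5.30 to 14.3), with 18 UMIs in 6 NEC members and 787 in 43 TEC members. In TEC it was found in 89.6% of members (1730 CPM), 86.6% of all other cells and 77.2% of cells with over 2 Cd3 UMIs (1131 CPM), and the part of free RNA in these values was not tested. Irf8, a transcription factor of type 1 conventional dendritic cells, was higher at 3.20-fold (2.24 to 4.73).

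**Figure D5:**
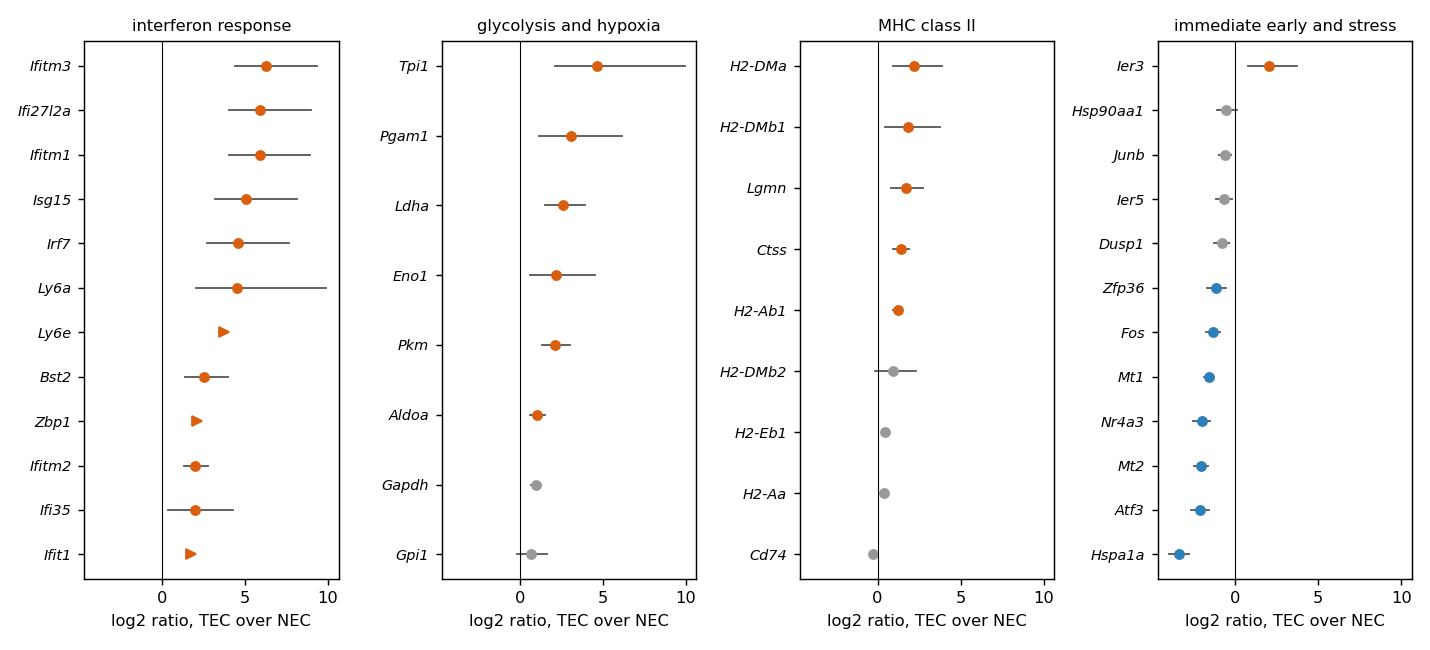
Log2 ratio of CPM in TEC over NEC members for the genes of 4 lists, at most the 12 farthest from 0 in each, with 95% counting intervals; arrowheads mark lower bounds where NEC had 0 UMIs, and orange, blue and grey mark higher, lower and neither by the size rule. The 12 interferon genes drawn lie to the right of 0, and 7 immediate early and stress genes are lower.

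Part of the maturation program was lower in TEC members: 9 of 25 other maturation genes compared were lower and 3 higher. The 12 named lower genes were Hspa1a, H2-M2, Bmp2k, Mreg, Mt2, Malat1, Atf3, Sqstm1, Nr4a3, Gm10116, Mt1 and Actb. Mreg was present in 15 of 18 NEC members and 22 of 48 TEC members (highest 6 UMIs in each), 547 against 90.1 CPM, 6.07-fold lower, and H2-M2 was 8.23-fold lower. Ccl17 was 3.53-fold lower (2.14 to 5.75). Of the immediate early and stress genes 7 of 19 were lower and 1 higher, including Hspa1a, an inducible heat shock protein, and Nr4a3, an orphan nuclear receptor that was 4.09-fold lower.

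Single NEC cells carried part of this. A single NEC member held 49.4% of the Hspa1a UMIs, 75.4% of those of the stress factor Atf3, 47.2% of those of the metallothionein Mt2 and 47.5% of those of Actb. Without the richest member of each gene in each library, the log2 ratio of Atf3 went from -2.12 to -0.61 and that of Actb from -1.37 to -0.96, neither then meeting the size rule, while Hspa1a remained at -3.37 and Nr4a3 at -2.03. Malat1, a nuclear RNA, was at a median of 80693 CPM per NEC member (16429 to 209122) and 27647 per TEC member (8557 to 64871), and the mitochondrial share was at a median of 2.98% and 1.28%; the part of RNA quality in these differences was not tested.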

How the data were processed

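The authors deposited a table of unnormalized UMI counts of 13774 genes in 2806 cells. Per the submitters' processing notes, the tools were STAR 2.5.1b, Seurat and Cell Ranger 2.0.2 with mm10, and no parameter is stated. Cell names starting with "control" were taken as NEC, by that word alone, and those starting with "tumor" as TEC.

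UMIs were summed over cells and scaled to CPM, with exact Poisson intervals; shares have exact Clopper-Pearson intervals, and the interval of a ratio is the same exact interval taken on a gene's UMIs in both sums (95%, counting error only). Genes needed at least 50 UMIs over both sums, and in comparisons between libraries had to be detected in some cell of both; a sum of 0 was set to 3 UMIs. With 1 library per group there was no test. A gene was called higher or lower at a ratio of at least 2 whose interval excluded 1. How well this rule recovered known folds was checked with simulated counts. These were Poisson counts drawn for the sums, without spread between cells. The check therefore says nothing about genes carried by single cells.

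The members and lists were chosen with earlier results of these data known. Among genes meeting the size rule, those named were ranked by the interval bound nearer to 1: 20 higher and 12 lower in both libraries, and 12 in each direction between libraries. Genes of the membership rule and of hemoglobin, immunoglobulin, ribosomal proteins and mitochondria were not eligible. Genes of the lists are named with the list's count. Doublets were not removed; Scrublet (scanpy 1.11.5) was run as an alternative. Genes were placed with RefSeq (GRCm38.p6; 412 of 414 matched); of the promoters, Ccr7, Relb, Cd40 and Ifi27l2a had no entry and are named only. Tools were Python 3.11.15, numpy 2.4.6, scipy 1.17.1, pandas 2.3.3, anndata 0.12.19 and matplotlib 3.10.9. A result on 1 gene is not reported here.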

Additional observations from a re-analysis of the deposited data

Results flagged for a closer look

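Some genes that met the size rule between TEC and NEC members went the opposite way in another group of cells of the same libraries. With 1 library per group, the difference between the cell groups was not tested, and each pair of values is a log2 ratio of TEC over NEC, first in members and then in the other cells. Against macrophages, the values were Lyz2 5.89 against -1.08, Ccl6 2.91 against -1.88, Cxcl2 1.65 against -1.09, Basp1 -1.37 against 3.92, H2-Ab1 1.21 against -1.19 and Fos -1.33 against 1.04. As above, neither expression by the members nor a lack of it is read from Lyz2, and 8 TEC members held at least 20 Lyz2 UMIs. The macrophages of TEC thus stood below those of NEC for H2-Ab1, a class II gene, while the members stood above. Among the members H2-Ab1 stood at 8314 CPM in the 12 TEC cells without Fscn1, at 1492 CPM in the 36 with Fscn1 and at 1538 CPM in the NEC cells, all with Fscn1.

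Against cells with over 2 Cd3 UMIs, the values were Mfge8 -1.81 against 1.70, Actb -1.37 against 1.27, Anxa3 -1.19 against 3.43, Zmynd15 -1.47 against 5.62, Basp1 -1.37 against 3.30, Atf3 -2.12 against 2.39, Hspa1a -3.39 against 3.02, Mt1 -1.60 against 1.28 and Mt2 -2.07 against 1.43. Without the richest member of each gene in each library, Atf3 and Actb stood at -0.61 and -0.96 in members. Neither then met the size rule, while Hspa1a, Mt1 and Mt2 still did. Zmynd15, Basp1 and Anxa3 are genes of the maturation program, and among the TEC cells left out of the members by the Cd3 condition alone 15 of 19 held Fscn1; these cells belong to the Cd3 group, and their part in its values was not tested.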

How the results depend on the processing

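No paired analysis was possible because each group has 1 library and the labels give no replicate numbers. Of 271 counts recomputed, 239 stayed within 1.5 times their main value. Members numbered 18 in NEC and 48 in TEC; with a core cutoff of 8 UMIs NEC had 11, and in cells thinned to 2000 UMIs TEC had 26. Against all other cells, the mean of per-cell CPM, with no interval, gave 805 higher and 3286 lower genes in NEC (from 521 and 419), 3138 lower in TEC (from 1561), 1 class II gene higher in NEC and 2 lower in TEC; median scaling gave 1251 higher (from 825) and 956 lower in TEC. Between TEC and NEC members (271 higher, 78 lower), a core cutoff of 2 UMIs gave 411 higher, means of per-cell CPM 446 higher, median scaling 175 higher and 147 lower, and a minimum of 20 UMIs 141 lower. In members thinned to 2000 UMIs, which left 338 genes, 60 were higher and 29 lower, with 6 interferon, 2 glycolysis, 3 class II and 2 uptake genes higher and 4 stress, 1 other maturation and 0 migration genes lower. Migration genes lower were 3, then 5 with per-cell means and 6 with median scaling. The 7 uptake genes higher became 4 with a core cutoff of 8 UMIs or at most 2 C1q UMIs. Added after seeing the data, restriction to members with Fscn1 left 2 class II, 3 glycolysis and 3 uptake genes higher, and removal of members with markers of other cells left 9 interferon and 3 uptake genes. These settings compared 1004 and 907 genes in all, in place of 1283. The sign reversed for 1 named gene in 2 settings: the log2 ratio of Cxcl1 was 1.03 in NEC against other cells with Ptprc and 0.99 in TEC with a core cutoff of 2 UMIs. Except where a setting leaves fewer genes or cells, the cause was not tested.

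Scrublet called 7 NEC and 3 TEC cells, 1 of them a member, and the filter removed 5 NEC cells and 0 members. The 18 NEC members held 87794 UMIs in all, which limits NEC genes near 0.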
